A study of Mus musculus with 23 samples.

Results

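The 13 dust-exposed lungs among the 23 mouse left lungs of the study were compared by the date in their extract code, 8 lungs of the earlier date (day 1) against 5 of the later date (day 2). The lungs were chosen by the exposure letter of the code and split by its date alone, and all endogenous genes of the panel were compared. The code is built from a date of extraction, the genotype, the sex, the exposure and a replicate number, and the labels do not say whether the date is that of the organ or of the RNA. The question was which genes grade between dust lungs of these dates, as they might with a response of different strength. With 1 date on each side, strength of the response and the date itself cannot be told apart.

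Every mouse had been given 14 instillations, of organic dust extract in the dust lungs and of PBS in the saline lungs, and was lavaged before the left lobe was kept in RNAlater. Fat-1 mice carry a desaturase gene that makes omega-3 from omega-6 fatty acids, and WT mice are the wild type. Ages and the transgene's promoter were not given in the labels. Day 1 had 2 dust lungs in each stratum, namely Fat-1 female, Fat-1 male, WT female and WT male. Day 2 had 1 Fat-1 female, 1 Fat-1 male, 2 WT female and 1 WT male dust lung. The saline lungs were 4 of day 1, with 1 in each stratum, and 6 of day 2, with 1 Fat-1 female, 2 Fat-1 male, 1 WT female and 2 WT male lungs. A mouse has 1 left lung, so each lung stands for a mouse, and p-values measure the spread between these mice.

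Inhaled organic dust carries bacterial and fungal products that are sensed by pattern receptors on airway cells and macrophages. These cells then release interleukin 1 and chemokines, and neutrophils enter the airways from the blood; with repeated exposure, lymphocytes gather around airways and vessels. Interleukin 1 receptor antagonist, phosphatases of signalling kinases and the metabolite itaconate are among the brakes that are made in the same response.

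Total RNA was counted with colour-coded probes on a NanoString myeloid panel of 734 endogenous and 20 housekeeping genes. Values are deposited as normalized counts, none lower than 20, which is called the floor here; the dust lungs held 264771 to 812429 recovered counts, with 81 to 149 genes at the floor. Of the endogenous genes 46 were at the floor in all dust lungs and 688 were tested, 537 of them above the floor in every dust lung. The Fat-1 male lung of day 2 had an instrument message of saturation, a binding density of 3.05 against 0.45 to 1.32 in the other dust lungs, and 5096 positive control counts; results are therefore given with and without it. Fat-1 female lung 2 of day 1 had 7964 positive control counts and the largest scale factor of the dust lungs, 2.36. The cartridge was inferred from the stage position given in the headers. Of the 8 dust lungs of day 1, 6 were on the first cartridge, and of the 5 of day 2, 4 were on the second. By exact permutation of the day over 1287 splits, recovered counts, scale factor, genes at the floor, positive controls, binding density and housekeeping level gave two-sided p-values of 0.441 to 0.968. Of the dust lungs, Fat-1 male lung 1 of day 1 is WT in its title and characteristics. Of the saline lungs, the Fat-1 female lung of day 1 is WT in both, Fat-1 male lung 2 of day 2 is WT and female in both, and WT male lung 2 of day 2 is female and dust in its title alone. The code was followed for all 4, so the strata and the genotype and sex terms rest on it.

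Between the dust lungs of the days, 8 genes were higher on day 1: Acod1, Fcer2a, Dusp2, Ltb, Pf4, Cd69, Mx1 and Cd247. These 8 of 688 endogenous genes (1.16%) passed limma's test, which held genotype and sex as terms, at an adjusted p under 0.05. None was lower past the threshold, or 0 of 688 (0%). At an unadjusted p under 0.05 there were 163 higher (23.7%) and 36 lower (5.23%). The log2 difference, day 1 minus day 2, was above 0 for 430 of 688 genes (62.5%) with a median of 0.17; after centring each lung on its median it was above 0 for 309, with a median of −0.04. In RNA of whole lungs, fewer cells of a type and less RNA per cell cannot be told apart.

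Of the 8 genes, 6 are in the RefSeq promoter table used here (GRCm38.p6), with 8 start sites between them. Mx1 and Cd69 are not in it and were not searched. Over the 250 bases before each start, both strands were searched for the NF-kappa-B consensus of the immunoglobulin kappa enhancer, for GAAANNGAA (the core of an interferon response element) and for TTCNNNGAA (a STAT element), which 0.14%, 7.13% and 7.02% of the table's 32851 promoters hold. Ltb was the 1 gene of the 6 with a match, to the NF-kappa-B consensus, read on the other strand, at position −87 and to TTCNNNGAA at −172, counted from the start to the first base of the match; the matches do not overlap. A match is a description of the sequence only. The Ltb stretch is shown because it holds the matches, in capitals, and that of Acod1, with none, because Acod1 had the largest difference of the 8; they lie on the plus strand at chr17:35194257-35194506 and chr14:103046762-103047011.
Ltb: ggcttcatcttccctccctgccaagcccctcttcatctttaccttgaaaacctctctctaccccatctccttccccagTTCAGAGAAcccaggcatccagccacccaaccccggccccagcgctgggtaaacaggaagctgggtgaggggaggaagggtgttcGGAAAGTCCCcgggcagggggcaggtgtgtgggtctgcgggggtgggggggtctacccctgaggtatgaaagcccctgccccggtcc
Acod1: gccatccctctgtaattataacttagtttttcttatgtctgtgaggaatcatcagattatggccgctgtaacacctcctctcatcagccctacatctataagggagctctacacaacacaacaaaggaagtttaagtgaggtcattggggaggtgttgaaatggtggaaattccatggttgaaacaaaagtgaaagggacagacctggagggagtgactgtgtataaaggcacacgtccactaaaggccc

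Of the 8 genes, Fcer2a, Ltb, Cd69 and Cd247 are known from lymphocytes, and Fcer2a, Cd69 and Cd247 had no overlap between the days. Fcer2a encodes the low-affinity IgE receptor of follicular B cells; its level in the day 1 dust lungs had a lowest value of 57.8, a median of 75.8 and a highest of 105.5 normalized counts. On day 2 it was 39.5 in the Fat-1 male lung, 27.9 in the Fat-1 female lung, and at the floor of 20 in both WT female lungs and the WT male lung. The groups did not overlap, and the log2 difference was 1.53 (SE 0.20, limma's adjusted p = 0.00288). All 10 saline lungs were at the floor for Fcer2a. With a common floor of 47.28 in every dust lung, the highest that any of them had, the difference was 0.65.

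Ltb, lymphotoxin beta, which organises lymphoid tissue, was at 123.9, 269.8 and 363.1 (lowest, median, highest) on day 1. On day 2 Ltb was 102.3 in the Fat-1 female, 126.5 in the Fat-1 male, 108.4 and 78.6 in the WT female and 69.1 in the WT male lung. The Fat-1 male lung of day 2 lay just above the lowest lung of day 1, and the other day 2 lungs lay below all of day 1 (log2 difference 1.36, SE 0.27, limma's adjusted p = 0.0398). Cd69, an early activation marker of lymphocytes, ran from 157.2 to 252.3 on day 1, with a median of 177.8, and from 52.3 to 130.5 on day 2 without overlap (log2 difference 1.10, SE 0.21, adjusted p = 0.0398). Cd247, the zeta chain of the T cell receptor complex, had no overlap either, at 109.5 to 186.7 on day 1 and 78.4 to 107.3 on day 2 (log2 difference 0.71, SE 0.15, adjusted p = 0.047).

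Acod1, the enzyme that makes itaconate in activated macrophages, had the largest difference of the 8. Its level on day 1 had a lowest value of 138.6, a median of 328.7 and a highest of 385.4. On day 2 Acod1 was 26.7 in the Fat-1 female, 168.0 in the Fat-1 male, 61.3 and 42.0 in the WT female and 110.1 in the WT male lung. The groups overlapped by the Fat-1 male lung of day 2 alone; the log2 difference was 2.10 (SE 0.40, limma's adjusted p = 0.0398), and 2.62 without that lung. Dusp2, a nuclear phosphatase of MAP kinases, ran from 109.7 to 252.9 on day 1, with a median of 146.4. On day 2 Dusp2 was 100.8 in the Fat-1 male lung and 43.0 to 58.5 in the other lungs, so the groups did not overlap (log2 difference 1.41, SE 0.27, adjusted p = 0.0398).

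Mx1, an interferon-induced antiviral GTPase, had 101.4 to 202.1 on day 1 and 41.1 to 82.2 on day 2 (log2 difference 0.99, SE 0.20, limma's adjusted p = 0.0434). Pf4, a chemokine stored in platelets, ran from 328.4 to 879.3 on day 1, with a median of 417.2. On day 2 Pf4 was 269.7 in the Fat-1 female, 276.8 in the Fat-1 male, 229.9 and 135.2 in the WT female and 160.5 in the WT male lung (log2 difference 1.11, SE 0.23, adjusted p = 0.0434). Neither gene's groups overlapped. Each of the 8 genes had a positive day difference in all 4 strata, with the smallest in the Fat-1 male stratum for each of them: there Acod1 was at 0.03 and Ltb at 0.02.

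**Figure D1:**
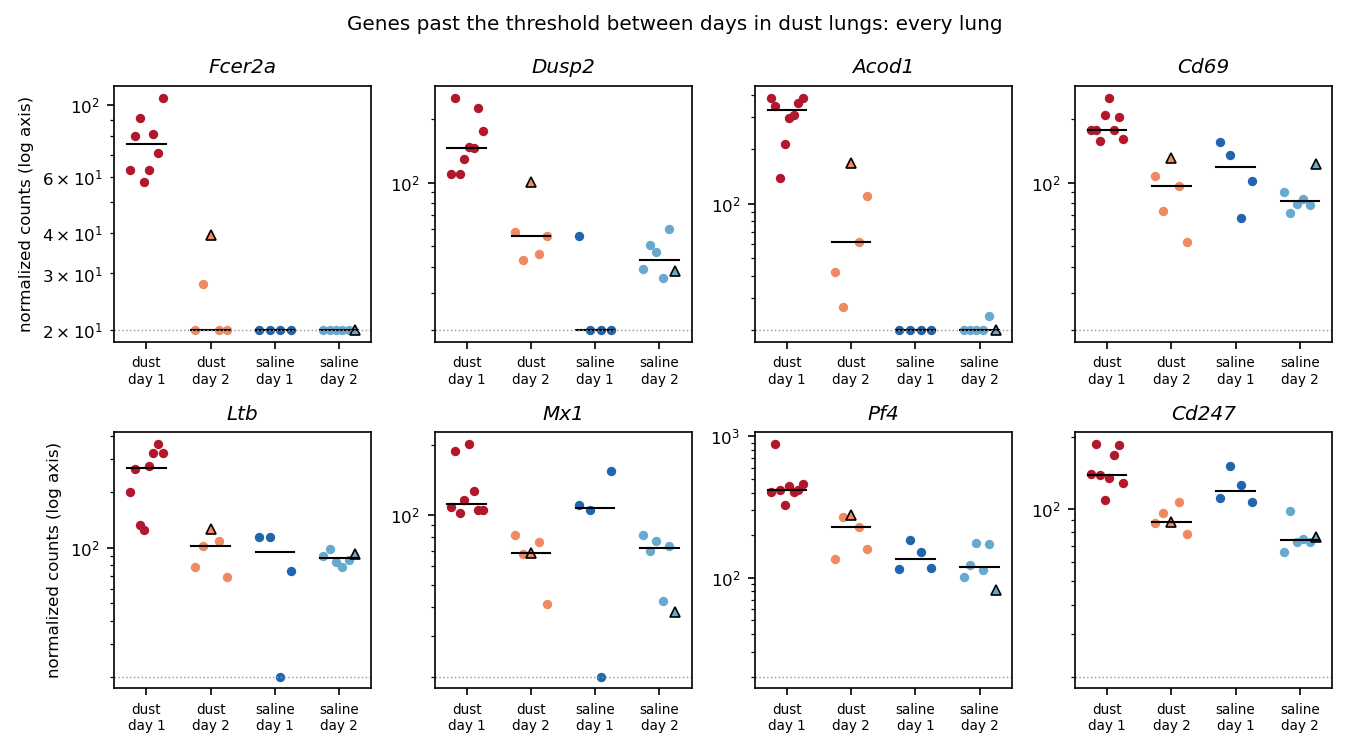
Normalized counts (log axis) of the 8 genes past the threshold, 1 panel a gene, with 1 point a lung, triangles for the lanes with a saturation message, bars at the medians and a dotted line at the floor of 20. Fcer2a is at 57.8 to 105.5 in the 8 dust lungs of day 1, at 20 to 39.5 in the 5 of day 2 and at the floor in all saline lungs. Cd247, Mx1 and Pf4 are among the genes with a higher median in the saline lungs of day 1 than of day 2 (135.2 against 118.3 for Pf4).

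Over all genes tested, 9 were higher in every dust lung of day 1 than in every one of day 2 (1.31% of 688), namely Cd247, Cd69, Dusp2, Fcer2a, Mx1, Pf4, Ell2, Pglyrp1 and Tnfrsf11a. For 4 genes (0.581%), Ddr2, Lamb2, Sema6d and Tek, every day 1 lung was below every day 2 lung. Of the 8 called genes, Fcer2a passed in all 13 fits that left out 1 lung, Dusp2, Cd69 and Pf4 in 5, Acod1 and Ltb in 4, and Mx1 and Cd247 in 3; with a common floor none of the 8 passed.

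Of the genes of inflammation described next, Il1b, Il1rn, Nlrp3, Cxcl2 and Ccl3 had log2 differences of 1.43 to 2.21 with standard errors of 0.38 to 0.57, against 0.15 to 0.40 for the 8 called genes, and 0 of the 5 passed with all 13 lungs. Il1b, the cytokine interleukin 1 beta, had 857 to 4293 normalized counts on day 1, with a median of 1499. On day 2 Il1b was 109.3 in the Fat-1 female, 1414 in the Fat-1 male, 235.4 and 151.7 in the WT female and 492.7 in the WT male lung. The Fat-1 male lung lay within the range of day 1 and the other 4 lungs lay below it. The log2 difference of Il1b was 2.21 (SE 0.57, limma's adjusted p = 0.0761), and 2.92 without the Fat-1 male lung (adjusted p = 0.0041).

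The same split of the day 2 lungs was seen for Il1rn, the receptor antagonist of interleukin 1. Its level was 1947, 4160 and 5158 (lowest, median, highest) on day 1, and on day 2 it was 420.9 in the Fat-1 female, 3311 in the Fat-1 male, 996.5 and 316.1 in the WT female and 1103 in the WT male lung. The log2 difference of Il1rn was 2.06 (adjusted p = 0.0661), or 2.75 without the Fat-1 male lung (adjusted p = 0.00148). Nlrp3, the sensor of the inflammasome that matures interleukin 1 beta, gave 1.43 with all lungs and 1.94 without that lung (adjusted p = 0.0778 and 0.00319). The 13 tested genes of the interleukin 1 family and inflammasome had a median difference of 0.54, and 0 passed with all lungs. Without the Fat-1 male lung 7 of the 13 passed, all higher, against 27.6% of all genes.

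Among chemokines and cytokines that draw neutrophils, 12 of 13 tested genes had a positive difference, against 62.5% of all genes. The 13 had a median of 1.21, against 0.17 over all genes. None of the 13 passed with all lungs, and 9 passed, all higher on day 1, without the Fat-1 male lung of day 2, where 189 of 686 genes (27.6%) were higher and 10 (1.46%) lower. Cxcl2, a ligand of the neutrophil receptor Cxcr2, was at 200.8, 361.3 and 587.7 on day 1 and ran from 38.4 to 340.0 on day 2, where the highest value was again that of the Fat-1 male lung (log2 difference 1.67, adjusted p = 0.0732; 2.12 without that lung). Ccl3, a macrophage chemokine, was 828.3 to 3484 on day 1, and on day 2 it was 1383 in the Fat-1 male lung and 116.9 to 444.6 in the other 4.

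The receptors by which neutrophils answer these signals had differences of the same sign. Cxcr2 had a median of 667.4 on day 1, with a range of 204.8 to 1137. On day 2 Cxcr2 was 44.2 in the Fat-1 female, 505.1 in the Fat-1 male, 116.1 and 20 (the floor) in the WT female and 248.2 in the WT male lung. Csf3r, the receptor of granulocyte colony-stimulating factor, was 386.9 to 2316 on day 1 and 84.0 to 877.8 on day 2; both genes overlapped through the Fat-1 male lung, and Cxcr2 also through the WT male lung. The log2 differences were 2.33 for Cxcr2 and 2.18 for Csf3r (adjusted p = 0.0817 and 0.0778), and 3.12 and 2.89 without the Fat-1 male lung (0.00706 and 0.00504). Of 14 tested neutrophil genes 11 were positive, against 62.5% of all genes. The 14 had a median of 1.15. With all lungs 0 passed, and without that lung 8 did, all higher, against 27.6% of all genes. The sum of 6 neutrophil markers (Csf3r, Cxcr2, S100a8, S100a9, Mpo and Ly6g) had a median of 21381 on day 1, with a range of 6117 to 40725. On day 2 that sum was 1438 in the Fat-1 female, 17189 in the Fat-1 male, 3505 and 1511 in the WT female and 8416 in the WT male lung, against 1449 to 3356 in the saline lungs of that day. Within day 1 the lowest sums, 6117 and 6369, were those of the Fat-1 male lungs. Mpo, a granule enzyme of immature neutrophils, was at the floor in all dust lungs of day 1.

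**Figure D2:**
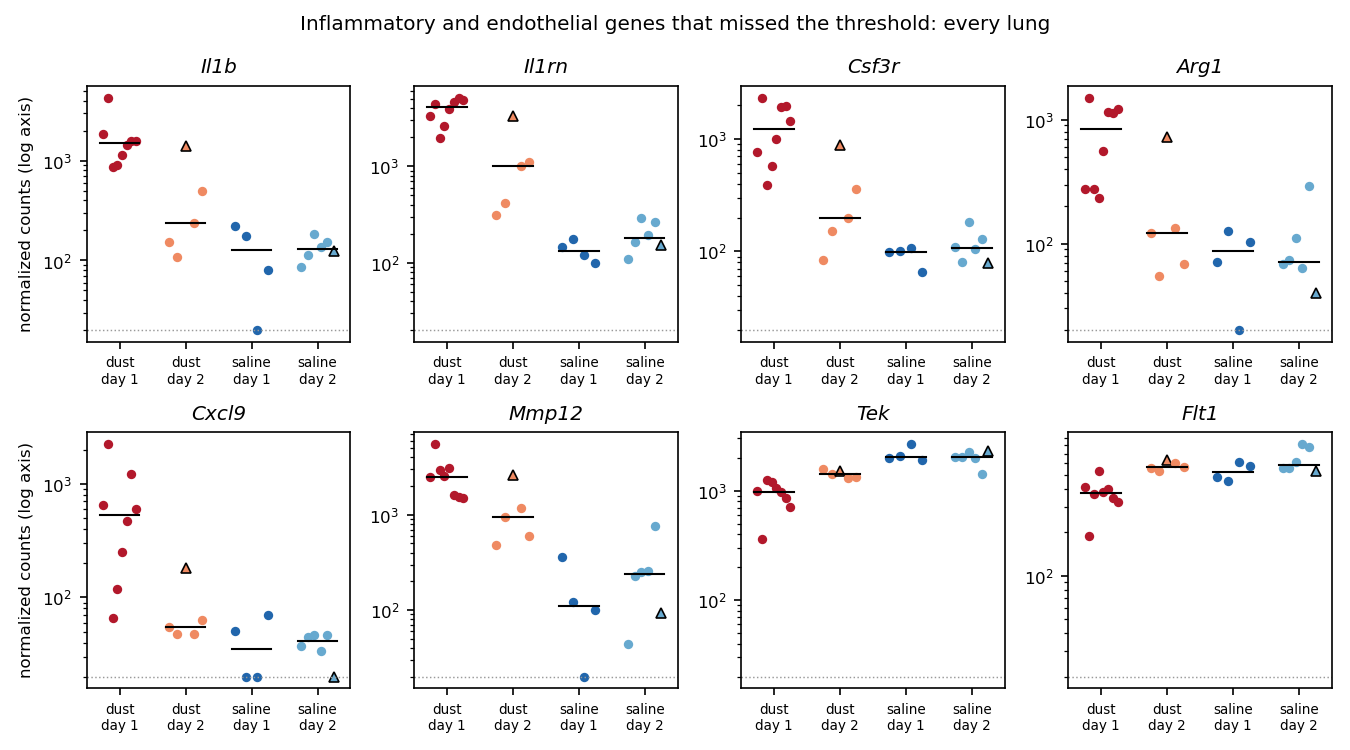
Normalized counts (log axis) of 8 genes that missed the threshold with all 13 dust lungs, drawn as in the plot of called genes. For Il1b, Il1rn, Csf3r, Arg1, Cxcl9 and Mmp12 the triangle of the Fat-1 male lung of day 2 is the highest of its group, while for Tek the 5 lungs of day 2 lie at 1314 to 1577, above the 364 to 1252 of day 1.

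Macrophage genes did not form 1 pattern. The 11 tested alveolar macrophage genes had a median difference of 0.03, or −0.19 after median centring, with 6 positive and 0 called. Over all genes 62.5% were positive. Without the Fat-1 male lung of day 2, 3 of the 11 passed, higher, which is near the 27.6% of all genes that did. Siglecf, a lectin of alveolar macrophages and eosinophils, had a median of 206.9 on day 1, and on day 2 it was 186.4 to 349.3 (log2 difference −0.31, adjusted p = 0.355). The 16 genes of monocytes and interstitial macrophages had a median of 0.73, with 14 positive and 0 called, and 8 passed, higher, without the Fat-1 male lung. Itgam, the integrin CD11b of myeloid cells, was 571.1 to 1750 on day 1 and 237.5 to 712.7 on day 2 (1.39, adjusted p = 0.0732). The complement genes C1qa, C1qb and C1qc had differences of 0.69, 0.84 and 0.81, with adjusted p-values of 0.148, 0.196 and 0.168. Mmp12, the macrophage elastase, had a median of 2509 on day 1, and on day 2 it was 946.3 in the Fat-1 female, 2597 in the Fat-1 male, 1172 and 484.2 in the WT female and 604.7 in the WT male lung (1.24, adjusted p = 0.0778).

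Arg1, the arginase of alternatively activated macrophages, was spread widely within both days. On day 1 Arg1 was 277.3 and 231.3 in the Fat-1 male lungs, 277.3 and 1508 in the Fat-1 female, 562.3 and 1135 in the WT female and 1152 and 1210 in the WT male lungs. On day 2 it was 721.6 in the Fat-1 male lung and 54.6 to 134.7 in the other 4. The log2 difference was 2.23 (SE 0.68, adjusted p = 0.0832), and 3.24 without that lung (adjusted p = 0.00204). The 17 tested alternative activation genes had a median of 0.04, which was −0.18 after median centring, against 2.23 for Arg1. With all lungs 0 passed. Without the Fat-1 male lung of day 2, 4 of the 17 passed, all higher, which is near the 27.6% of all genes that did.

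The interferon-stimulated genes were all positive, 9 of 9, with a median of 0.75 and 1 called, Mx1. Over all genes 62.5% were positive and 1.16% were called. Without the Fat-1 male lung 6 of these 9 passed, all higher, against 27.6% of all genes. Cxcl9, an interferon-gamma-induced chemokine for T cells, had a wide range, from 66.2 in Fat-1 male lung 1 to 2236 in Fat-1 female lung 2 of day 1, with a median of 533.3. On day 2 Cxcl9 was 182.9 in the Fat-1 male lung and 47.1 to 63.5 in the other lungs, values near those of saline lungs, which ran from the floor to 70.4 (log2 difference 2.70, SE 0.75, adjusted p = 0.0778). Of 10 genes of B cells and lymphoid follicles 9 were positive, with a median of 0.84 and 2 called, Fcer2a and Ltb. Without the Fat-1 male lung 7 of the 10 passed, higher, against 27.6% of all genes. Ms4a1, which encodes the B cell antigen CD20, was 240.7 to 672.7 on day 1 and 121.3 to 327.8 on day 2 (0.86, adjusted p = 0.0778). Of 9 T and cytotoxic lymphocyte genes 8 were positive, with a median of 0.65 and 1 called, Cd247. Without the Fat-1 male lung 5 of these 9 passed, all higher, against 27.6% of all genes. Ctla4, an inhibitory receptor of T cells, was at 1.67 (adjusted p = 0.0661). No marker of the T cell list Cd3d, Cd3e, Cd4 and Cd8a is on the panel.

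The tested subunits and feedback genes of NF-kappa-B were all positive, 8 of 8, against 62.5% of all genes. The 8 had a median of 0.68, and 0 passed with all lungs. Without the Fat-1 male lung of day 2, 6 passed, all higher, against 27.6% of all genes. Nfkbie, an inhibitor of NF-kappa-B, was 233.4 to 344.7 on day 1 and 113.3 to 286.6 on day 2 (0.76, adjusted p = 0.0778). Socs3, a brake on cytokine signalling, was at 0.82 and Tnfaip3, a ubiquitin-editing inhibitor, at 0.98 (adjusted p = 0.0778 and 0.0935).

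Most of the endothelial genes had differences on the other side, as values that missed the threshold with all 13 lungs. Of 14 tested, 10 were negative and 4 positive, where 62.5% of all genes were positive. The 14 had a median of −0.58 and a highest difference of 1.01. The median was −0.79 after median centring. Without the Fat-1 male lung of day 2, 3 passed lower on day 1 and 1 higher, against 1.46% and 27.6% of all genes. Selp, also of this list, stayed positive, at 0.80 to 1.35 when a lung was left out. Tek, the angiopoietin receptor, was 364.0 to 1252 on day 1, with a median of 976.4, and on day 2 it was 1408 in the Fat-1 female, 1500 in the Fat-1 male, 1314 and 1577 in the WT female and 1333 in the WT male lung. The groups did not overlap, and the saline lungs of both days were at 1429 to 2654 (log2 difference −0.73, SE 0.26, adjusted p = 0.117). Flt1, a receptor of vascular endothelial growth factor, and Ptprb, the phosphatase of endothelial junctions, were both at −0.72 (adjusted p = 0.0778 and 0.0785), and Cav1, the caveolar coat protein, was at −0.49 (adjusted p = 0.107). Among the other genes with the smallest p on this side, Gata3 was at −0.55, Lamb2, a laminin chain, at −0.57, Nox4, an oxidase, at −0.62, Bmp6, a growth factor, at −0.63, Hc, complement component 5, at −0.53 and the hemidesmosome collagen Col17a1 at −0.68 (adjusted p = 0.0982 to 0.122); with a common floor Col17a1 was at −0.08. The sum of Cdh5 and Tek, the endothelial markers on the panel, was 1208 to 2218 in dust lungs of day 1, 2271 to 3113 in those of day 2 and 2832 to 4742 in saline lungs. The part of the cell mix in the other differences was not tested.

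**Figure D3:**
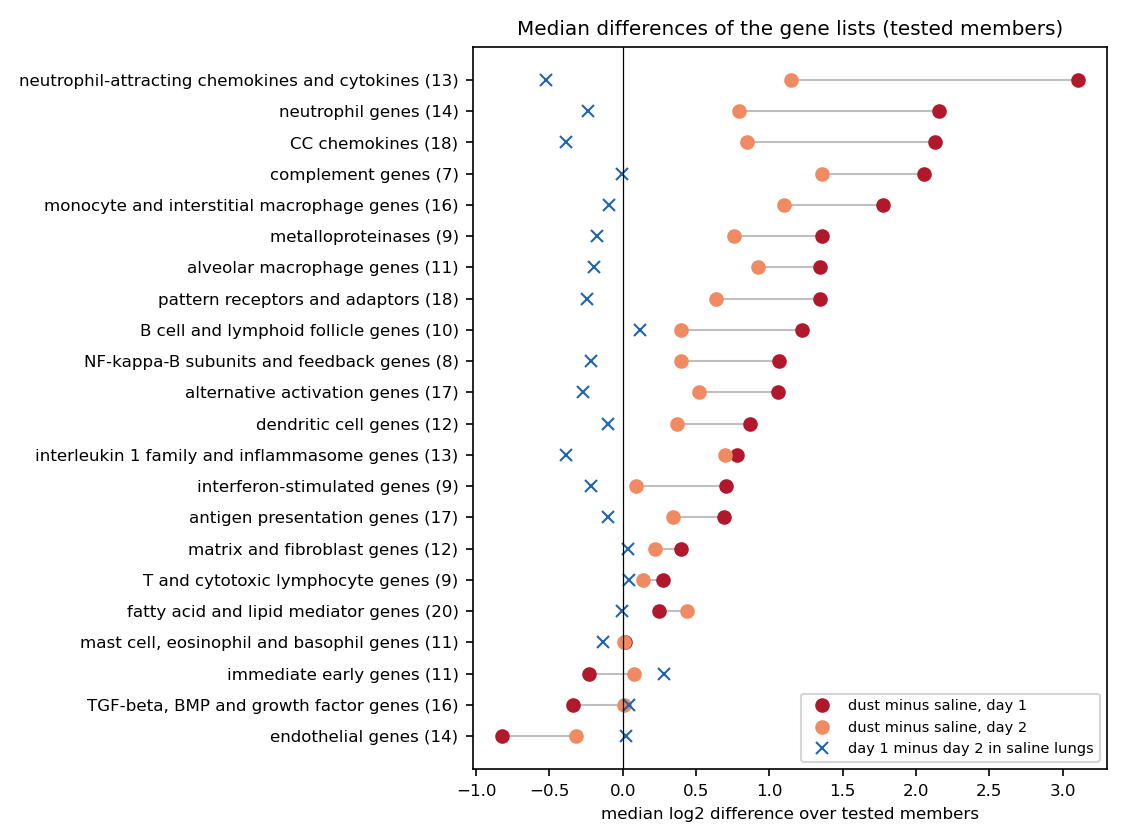
Median log2 differences over the tested members of each gene list, with filled points for dust minus saline on day 1 and on day 2 and crosses for day 1 minus day 2 in saline lungs; the number of members tested in dust lungs is in brackets. The chemokines and cytokines that draw neutrophils lie at 3.11 on day 1 and 1.14 on day 2, and the endothelial genes at −0.82 and −0.32. The medians are without a common floor.

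The saline lungs were compared between the days in the same way, without dust. All 4 of day 1 were on the first cartridge and 5 of the 6 of day 2 on the second. Day and cartridge can therefore hardly be told apart there. WT male saline lung 1 of day 2 had the other saturation message, with a binding density of 3.12 and 4351 positive control counts. Of 674 endogenous genes 0 passed higher (0%) and 0 lower (0%) by limma, with 21 and 35 at an unadjusted p under 0.05 (3.12% and 5.19%), and the lowest adjusted p was 0.067. The 5 genes with the smallest p were Cxcl10, Nfkbie, Mmp8, Cxcr5 and Cd14. Cd247 had nearly the same difference there, 0.66 (adjusted p = 0.105) against 0.71 in dust: its level was 106.7 to 151.7 in the 4 saline lungs of day 1 and 66.2 to 98.6 in the 6 of day 2. The difference of the day effects for Cd247 was 0.04 (95% interval −0.38 to 0.47, adjusted p = 0.912). Mx1 was at 0.41 and Cd69 at 0.39 in saline, while Acod1 was at −0.05, Pf4 at 0.16, Ltb at −0.34 and Dusp2 at −0.85. Nr4a1, an immediate early nuclear receptor, was at 1.02 in dust (adjusted p = 0.0778) and at 1.16 in saline (adjusted p = 0.652). For Dusp2, 3 of the 4 day 1 saline lungs were at the floor, and the day 1 saline lungs had larger scale factors, which places their lowest measurable value higher.

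Against the saline lungs of the same day, the dust response was larger on day 1. In a model of all 23 lungs 293 of 691 genes rose with dust on day 1 (42.4%) and 82 fell (11.9%), and on day 2, 90 rose (13%) and 3 fell (0.434%). At an unadjusted p under 0.05 there were 314 higher (45.4%) and 94 lower (13.6%) on day 1 and 169 higher (24.5%) and 17 lower (2.46%) on day 2. The balance depended on the scale: it was 253 higher and 121 lower on day 1 on the housekeeping scale, and with median centring 206 and 228 on day 1 and 48 and 17 on day 2. Of the 90, 86 were among the 293, which is 95.6% of the day 2 list and 29.4% of the day 1 list. The 90 had a median response of 1.14 on day 2 and 1.69 on day 1, and 82 of them were larger on day 1. Ear6, Siglecf and, named after their values were seen, Hoxd4 and Lipa passed on day 2 and missed on day 1; for Siglecf the responses were 0.85 and 0.44 and their difference was −0.41 (day 1 minus day 2, adjusted p = 0.363). Bmp6, Erg and Gzma fell on day 2, by 0.67, 0.41 and 0.97 on the log2 scale, and all 3 also fell on day 1. Without both lanes with a saturation message, 16 genes rose and 0 fell on day 2.

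Over the 691 genes the median response was 0.36 on day 1 and 0.19 on day 2, with an SD over genes of 1.11 and 0.504. The day 1 response was the larger in size, whatever its sign, for 571 genes (82.6%), and 564 had the same sign on both days. The day 1 saline lungs had 136 to 232 genes at the floor, against 66 to 140 in those of day 2. These values and the counts of genes that rose or fell have no common floor. With a common floor of 84.26 in all 23 lungs, the Il1rn responses were 4.79 on day 1 and 2.28 on day 2. Cxcr2 was then at 2.70 and 0.87, Cxcl2 at 2.07 and 0.76, Acod1 at 1.77 and 0.26 and Fcer2a at 0.05 and 0.01. As a description over genes, which are not independent, the responses had Pearson's r of 0.857 and Spearman's rho of 0.835; the days share no lungs, but they share the panel and its probes.

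**Figure D4:**
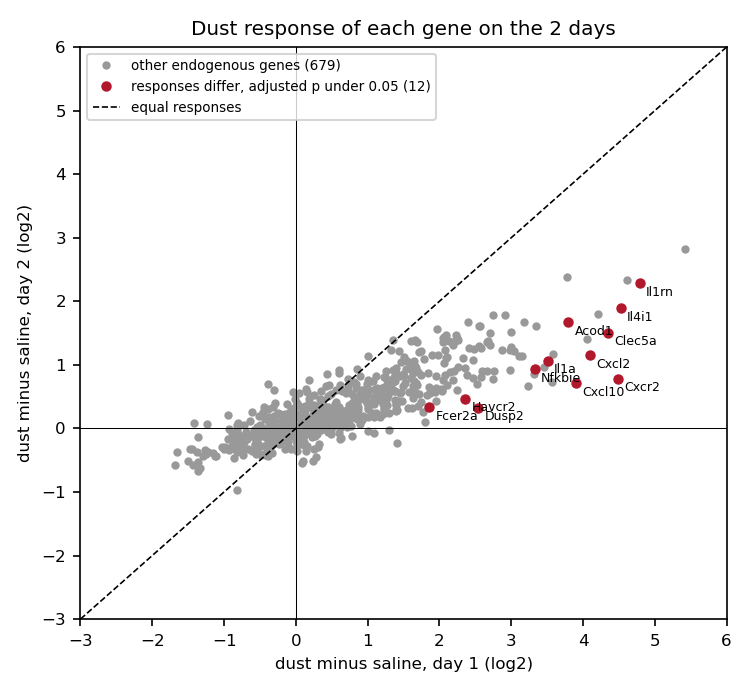
Log2 difference between dust and saline lungs of each of 691 endogenous genes on day 1 (horizontal) and day 2 (vertical), with a dashed line where both are equal and 12 genes marked whose responses differed at an adjusted p under 0.05. Most genes with a large response lie below the dashed line, with Cxcr2 at 4.49 on day 1 and 0.78 on day 2. The plot has no common floor, with which Cxcr2 was at 2.70 and 0.87.

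The difference between these responses passed limma's test for 12 of 691 genes, all larger on day 1 (1.74%), and for 0 in the other direction (0%); 123 and 30 had an unadjusted p under 0.05 (17.8% and 4.34%). The largest was Cxcr2, with a response of 4.49 on day 1 and 0.78 on day 2 (difference 3.71, SE 0.91, adjusted p = 0.0424). Cxcl10, an interferon-induced chemokine, had 3.90 and 0.71 (difference 3.18, adjusted p = 0.0128), Cxcl2 4.09 and 1.15 (2.95, 0.0176), and Clec5a, a lectin receptor of myeloid cells, 4.35 and 1.51 (2.84, 0.0348). Il4i1, an amino acid oxidase, Il1rn, Il1a, Nfkbie, Dusp2, Acod1, Havcr2, the inhibitory receptor TIM-3, and Fcer2a had differences of 2.64, 2.50, 2.45, 2.40, 2.21, 2.13, 1.90 and 1.53. A difference of responses also holds the day difference of the saline lungs. Between dust lungs alone Nfkbie was at 0.66 to 1.03 and Cxcl10 at 1.47 to 2.57 when a lung was left out. Both were among the 5 genes with the smallest p between the days in saline lungs. Of the 8 genes called between dust lungs, Fcer2a, Dusp2 and Acod1 were among the 12.

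For most of these 12 genes the saline lungs of day 1 lay at or near the floor. Cxcl10, Cxcl2, Il4i1, Acod1 and Fcer2a were at 20 in all 4, and in day 2 Cxcl10 was at 32.1 to 86.1. With a common floor of 84.26 in all 23 lungs none of the 12 passed: Cxcr2 was at 1.83, Cxcl10 at 1.46, Cxcl2 at 1.31, Il1rn at 2.50 (adjusted p = 0.155) and Fcer2a, whose values are nearly all under that floor, at 0.05. Il1rn was above the floor in every lung and kept its difference of 2.50. Without the lanes with a saturation message 107 genes passed, 100 larger on day 1 and 7 the other way.

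The day differences had a positive median in 3 strata and a negative one in 1. The median over 688 genes was 0.31 in WT females, 0.23 in WT males and 0.22 in Fat-1 females, with 458, 437 and 410 genes above 0, and −0.26 in Fat-1 males, with 199 above 0. In the Fat-1 male stratum day 2 is the lane with the saturation message alone, and its day 1 lungs had the lowest neutrophil marker sums of day 1; the 4 dust lungs of day 2 in the other strata were at 1438 to 8416. For chemokines and cytokines that draw neutrophils the stratum medians were 1.41 in WT females, 0.49 in WT males, 3.24 in Fat-1 females and −0.53 in Fat-1 males. For the endothelial genes they were −0.57, −0.67, −0.70 and 0.02. The difference of the day effect between genotypes passed for 1 of 688 genes, Ctsa, a lysosomal protease (Fat-1 minus WT −1.47, adjusted p = 0.031), whose dust levels were between the floor and 40.7. It passed for 0 genes between the sexes, with 71 at an unadjusted p under 0.05 and a lowest adjusted p of 0.125.

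**Figure D5:**
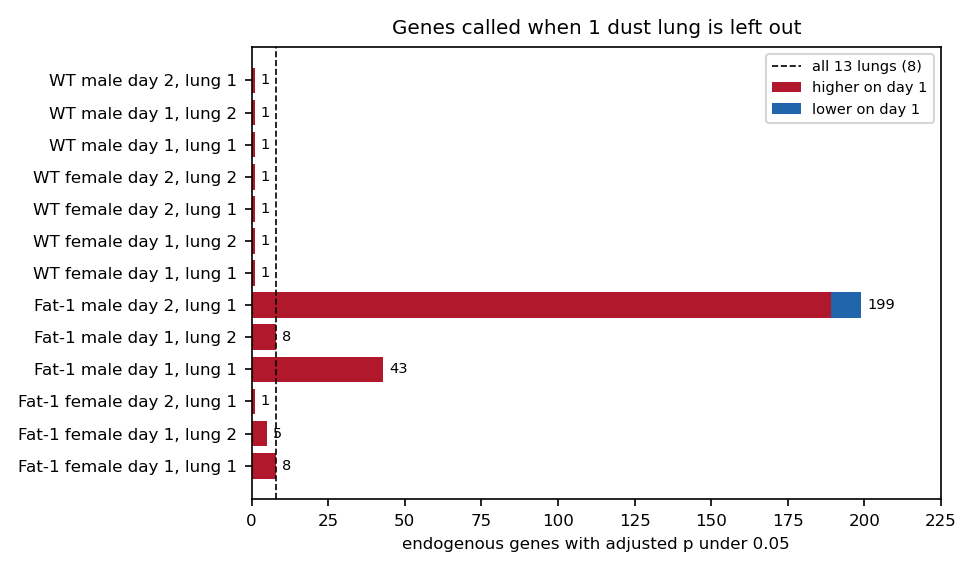
Number of endogenous genes with an adjusted p under 0.05 between the dust lungs of the days (horizontal) when each of the 13 lungs is left out in turn, with the dashed line at the 8 genes of all lungs. Leaving out the Fat-1 male lung of day 2 gives 199 genes, 189 higher and 10 lower on day 1, and 8 of the other fits give 1.

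The number of genes that passed varied with single lungs. Without the Fat-1 male lung of day 2 the count was 199, and all 8 genes called with every lung were among them; the 10 lower genes there were Ptprb, Col17a1, Cav1, Flt1, Nox4, Tlr5, Hoxd4, Sgpp1, Ptgds and Acad10, the last 5 named after their values were seen. Without Fat-1 male lung 1 of day 1 the count was 43, without Fat-1 female lung 2 of day 1 it was 5, and without either Fat-1 female lung 1 or Fat-1 male lung 2 of day 1 it stayed at 8. Leaving out any of the 4 WT lungs of day 1, the 3 WT lungs of day 2 or the Fat-1 female lung of day 2 left 1 gene. With the cartridge as a block 37 genes passed, 34 higher and 3 lower; within the first cartridge, with 1 lung of day 2, and within the second, with 2 lungs of day 1, 0 passed by limma (156 and 161 at an unadjusted p under 0.05).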

How the data were processed

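The deposited values are a signal, normalized probe counts: per the file headers and the values, the authors' counts were multiplied by a factor for each lung, and counts under 20 were set to 20. Which genes and software gave the factor is not stated in the labels or headers. Lungs were grouped by extract code. The day, the gene lists and the genes described were chosen with earlier results of these data known.

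In R 4.3.3, limma 3.58.1 was fitted to log2(value + 1) and its moderated two-sided p-values were adjusted by Benjamini-Hochberg over the 708 genes (694 in saline, 711 in all 23 lungs) above the floor in at least 1 lung; counts are of endogenous genes. Day was fitted in the 13 dust lungs, and separately in the 10 saline lungs, with genotype and sex as terms. Means of exposure and day over 23 lungs, with the same terms, gave the responses and their difference. Counts hidden by the floor kept count models out. Counting error at 20 counts limits low genes, and the number of lungs limits every value.

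By rule, up to 15 called genes each way (or 10 by p where fewer than 5 passed) and up to 4 members of each of 27 lists were picked. The 8 genes with the smallest p for the difference of day effects and the 5 for saline were added. So were genes called by genotype or sex. Not all of the genes picked are described in the text. Other genes were named after their values were seen. Fits were run on simulated data with the same normal noise for every gene, no floor and no outlying lane. That run checks the code and not how the fits behave in these lungs. Python 3.11.15 with numpy 2.4.6, pandas 2.3.3, scipy 1.17.1 and matplotlib 3.10.9 prepared tables and plots. Of 754 symbols, 744 were identical to the RefSeq gene table.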

Additional observations from a re-analysis of the deposited data

Results flagged for a closer look

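For each of 107 genes picked by rule, the groups of 8 and 5 dust lungs were examined for a lung that stood far from the others. The rule set the gap to the next lung against the range of the group. Chance meets it in about 1 of 20 groups only where values are normally distributed. It was used on counts without logs, some of them at the floor, so its share cannot be set against 1 in 20. Of 214 gene and group pairs, 38 (17.8%) met it. Fat-1 female lung 2 of day 1, with the largest scale factor of the dust lungs, was the lung apart in 18 of them. It was the highest of day 1 for the chemokines and cytokines Il1b (4293 normalized counts), Ccl3 (3484), Ccl4 (373), Ccl8 (816) and Csf1 (1889), for Pf4 (879) and for the receptors Il1r2 (343) and Ccr7 (414). It was also the highest for the T cell receptors Ctla4 (333) and Icos (404), for Cd86 (307), C1qc (3489), Mmp12 (5508) and Tnfaip3 (1778), and for Atf3 (567), Hif1a (3680) and Nos2 (189). For Vegfa, the vascular growth factor, it was the lowest (638). Without this lung and the Fat-1 male lung of day 2, 254 genes passed between the days; its part in each value beyond that was not tested.

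The Fat-1 male lung of day 2, whose lane had the saturation message, was the highest of its group for 14 genes. They were Il1rn (3311), Ccl3 (1383), Ccl4 (131), Ccl8 (529), Cxcl9 (183), Arg1 (722), Nlrp3 (442), Tnfaip3 (1097), C5ar1 (268), Adam8 (791), Mmp19 (777), Cd83 (214), Ptafr (861) and Dusp2 (101). In the other lungs, Lamb2 was highest in WT female lung 1 of day 2 (1023), Ms4a1 in WT female lung 2 of day 1 (673), and Pdgfra (1338) and Timp3 (8634) in Fat-1 female lung 1 of day 1. Nox1 was above the floor in WT female lung 1 of day 1 (26.4) and the Fat-1 female lung of day 2 (24.4) alone.

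The dust response differed between the days by limma's test for 12 genes, with a day 1 response larger by 3.71 for Cxcr2, 3.18 for Cxcl10, 2.95 for Cxcl2, 2.84 for Clec5a, 2.64 for Il4i1 and 2.50 for Il1rn on the log2 scale. The others were Il1a at 2.45, Nfkbie at 2.40, Dusp2 at 2.21, Acod1 at 2.13, Havcr2 at 1.90 and Fcer2a at 1.53. The day difference of Ctsa was −1.47 in Fat-1 against WT lungs, at levels between the floor and 40.7.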

How the results depend on the processing

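The count of genes that passed between the days in dust, 8, depended on the processing and on single lungs. It was 6 on the housekeeping scale or with a trended robust variance, 9 with a pseudocount of 20, with genes above the floor in every dust lung or with genotype from the characteristics, and 4 with median centring (Acod1, Dusp2, Fcer2a and Ltb). It was 0 with a common floor (190 at an unadjusted p under 0.05, lowest adjusted p 0.0564, that of Fcer2a), 1 without a filter, 31 without genotype and sex terms, 74 with the lung titled dust counted as dust (69 higher, 5 lower) and 108 with all 23 lungs in the fit (94 higher, 14 lower). It was 37 with the cartridge as a block, 0 within either cartridge, 254 without the 2 dust lungs in doubt (221 higher, 33 lower) and 1 to 199 when a lung was left out. With the replicate block it was 1, and 14 for the difference of responses. Lungs of a stratum with the same number had correlations of deviations from −0.476 to 0.543 across days. Those with different numbers had −0.427 to 0.229. So few overlapping values cannot settle whether the numbers pair the lungs. The saline count, 0, was 1 with a common floor (Cxcr5, higher) and 1 without the lane with a saturation message, and 0 to 9 when a lung was left out. The difference of responses, 12, was 1 with a common floor (Cxcr5, smaller on day 1), 6 with the cartridge as a block, 107 without the lanes with a saturation message, and 4 to 144 when a lung was left out. Dust against saline on day 2, 93, was 16 without those lanes and 27 to 147 when a lung was left out; on day 1, 375, it was 335 to 392. The 1 gene that differed by genotype was 0 on the housekeeping scale, with median centring, with a common floor, with genotype from the characteristics and without that lane. Of 102 genes picked by rule from the dust comparison, 7 had a value that changed sign, none of which passed with all lungs. Nox1 was at −0.044 on the housekeeping scale, −0.21 with median centring, −0.0073 without genotype and sex terms, −0.16 with the titled lung as dust, and −0.058 to 0.063 when a lung was left out. Cdkn1a was at −0.0075 and −0.18 on those scales and −0.051 to 0.12 when a lung was left out. Cdh1 was at 0.010 with the titled lung as dust, 0.091 in the second cartridge, 0.089 without the 2 lungs in doubt, 0.014 with the cartridge block and −0.070 to 0.029 when a lung was left out. In the first cartridge Siglecf was at 0.69, Dusp1 at −0.95 and Clec1b at 0.82, and in the second Nos2 was at −0.022 (−0.31, 0.38, −0.16 and 0.77 with all dust lungs). With genotype and sex from the characteristics, a setting added after seeing the data for these results, the saline count was 0, the difference of responses 12, and dust against saline 368 on day 1 and 98 on day 2. The causes were not tested. The edgeR test on recovered counts was not run, since counts under the floor are hidden. Depth limits genes near the floor, for which a day difference under the common floor of 47.28 was not measurable in every lung.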
